A study of Mus musculus with 12 samples.

Results

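The promoters of the ribosomal protein genes were examined in β-catenin and H3K27ac ChIP-seq of mouse forelimb buds. The genes were taken by symbol from the protein-coding genes of chromosomes 1 to 19 and X, as those that start with Rpl or Rps and a digit, together with Rpsa and Rplp0 to Rplp2, without the Rps6k kinases and names with -ps. This gave 86 of 21755 protein-coding genes. They comprise 46 genes of the large subunit, 31 of the small subunit and 9 paralogues or genes only named after a ribosomal protein. For each gene, the summits less than 1 kb from any of its annotated transcription start sites (TSSs) were collected from 12 peak lists, and those within 50 kb were counted beside it.

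Wild-type Swiss Albino embryos were exposed through the mother at E10.5 to C59, which inhibits porcupine and thereby WNT secretion, or to the solvent DMSO, and forelimb buds were pooled for each sample 6 h after injection. Each antibody and treatment had 2 replicates with a list each, and 1 consensus list was made from both. The study's methods state that its replicates drew on different embryos and litters, but not which litters entered each ChIP sample, and p-values measure only the spread between these samples. The 4 input libraries were not analysed here. Whole limb buds hold mesenchyme, ectoderm and other cells, so that fewer cells with a mark and less of the mark per cell cannot be told apart.

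Ribosomal proteins assemble with ribosomal RNA into the large and small subunits of the cytosolic ribosome. Their genes are transcribed in nearly all cells, usually from promoters without a TATA box, and their mRNAs begin with a terminal oligopyrimidine (TOP) tract that couples their translation to growth signals. H3K27ac, acetylation of lysine 27 of histone H3, marks active promoters and enhancers. β-catenin enters the nucleus in response to WNT ligands and binds DNA through TCF/LEF factors rather than directly.

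The depth of the replicate lists was 2.93 and 3.39 Gb of fragments for β-catenin in DMSO and 3.42 and 3.40 Gb in C59. For H3K27ac it was 5.03 and 5.39 Gb in DMSO and 5.93 and 5.56 Gb in C59. The β-catenin lists of C59 held only 330 and 358 rows, against 20203 and 25836 in DMSO, for all genes alike. As a check of the tissue, an H3K27ac consensus summit lay at a TSS of 6 of 6 forelimb mesenchyme markers in both treatments and of 0 of 3 blood markers and 0 of 3 markers of tissues that a limb bud lacks. Of 4 ectoderm markers, Epcam alone had one, in DMSO, and Fgf8, Wnt7a and Krt8 had none. In both treatments 1 of 2 hindlimb markers, Tbx4, and 1 of 3 muscle precursor markers, Lbx1, had one. The Tbx4 summit had 4.44 and 3.31-fold enrichment in DMSO and C59, above the 2.22 and 2.54 of the forelimb marker Tbx5. The other mesenchyme markers ran from 2.45 for Prrx1 to 11.7 for Prrx2 in DMSO. The endothelial markers Cdh5 and Pecam1 had none in DMSO and had summits of 3.16 and 4.68-fold enrichment in C59; their part in the results was not tested.

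Sequences around the β-catenin summits in DMSO are shown first, for 5 of the genes with a β-catenin consensus summit at a TSS and for Rpl13a, the gene with the lowest value. Each is 101 bases of GRCm38 centred on the summit, on the strand of the gene, and capitals mark a TCF/LEF word (ATCAAAG or TTCAAAG), an SP word (GGGCGG) or an ETS word (CGGAAG) on either strand.
Rps19, chr7:24884279-24884379, plus strand: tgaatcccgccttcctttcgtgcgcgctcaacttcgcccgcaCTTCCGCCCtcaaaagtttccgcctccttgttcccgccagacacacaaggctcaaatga
Rpl37, chr15:5116177-5116277, plus strand: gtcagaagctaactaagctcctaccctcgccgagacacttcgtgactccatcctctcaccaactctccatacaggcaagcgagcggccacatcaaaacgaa
Rps24, chr14:24487175-24487275, plus strand: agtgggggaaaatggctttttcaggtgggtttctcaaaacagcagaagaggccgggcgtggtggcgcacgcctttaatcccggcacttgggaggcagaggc
Rps3a1, chr3:86142429-86142529, minus strand: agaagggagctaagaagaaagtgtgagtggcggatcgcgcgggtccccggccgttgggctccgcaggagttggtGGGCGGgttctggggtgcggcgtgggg
Rpl9, chr5:65391827-65391927, minus strand: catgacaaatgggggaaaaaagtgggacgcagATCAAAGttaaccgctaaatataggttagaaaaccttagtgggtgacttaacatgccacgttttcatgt
Rpl13a, chr7:45129015-45129115, minus strand: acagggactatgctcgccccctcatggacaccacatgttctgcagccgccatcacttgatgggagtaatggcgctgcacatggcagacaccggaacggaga
Among these windows only that of Rpl9 holds a TCF/LEF word. In the Rps19 window the capitals are an ETS word and an SP word, both on the opposite strand, that overlap. The 3′ part of the Rps24 window reads like the beginning of a B1 repeat, a short element present in very many copies in the mouse genome; the part that this plays in the placement of reads was not tested.

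H3K27ac was found at the promoter of every gene that encodes a standard subunit protein. A consensus summit lay at a TSS of 82 of the 86 genes in DMSO (95.3%, 95% Wilson interval 88.6 to 98.2) and of 82 in C59, against 52.6% and 51.6% of all protein-coding genes. The same 82 genes carried one in each of the 6 H3K27ac lists. All 46 large and all 31 small subunit genes were among them. The share over all genes includes genes that are silent in the limb bud, so that it is no measure of what active genes carry. Among lists of related genes, the share in DMSO was 17 of 17 other cytosolic ribosome and TOP mRNA genes, 78 of 78 mitochondrial ribosomal protein genes and 22 of 22 ribosome biogenesis genes.

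The 4 genes without an H3K27ac summit at a TSS in any of the 6 lists were Rpl10l (GRCm38 chr12:66283379-66284401), Rpl39l (chr16:10170226-10174911), Rpl3l (chr17:24727820-24736143) and Rps27rt (chr9:114982366-114982739). Rpl10l and Rpl39l are paralogues used mainly in the male germ line, Rpl3l is the striated muscle paralogue of Rpl3, and Rps27rt is a retrocopy of Rps27. Their 5 fellow paralogues or namesakes with a summit were Rpl7l1, Rpl22l1, Rpl36al, Rps27l and Rps19bp1, and their median fold enrichment was 11.3 in the DMSO consensus list. The authors discarded alignments whose mapping quality was below 30, which removes reads that fit a copy of a gene as well as its parent. The part of this in the absence of summits at the 4 genes was not tested.

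**Figure D1:**
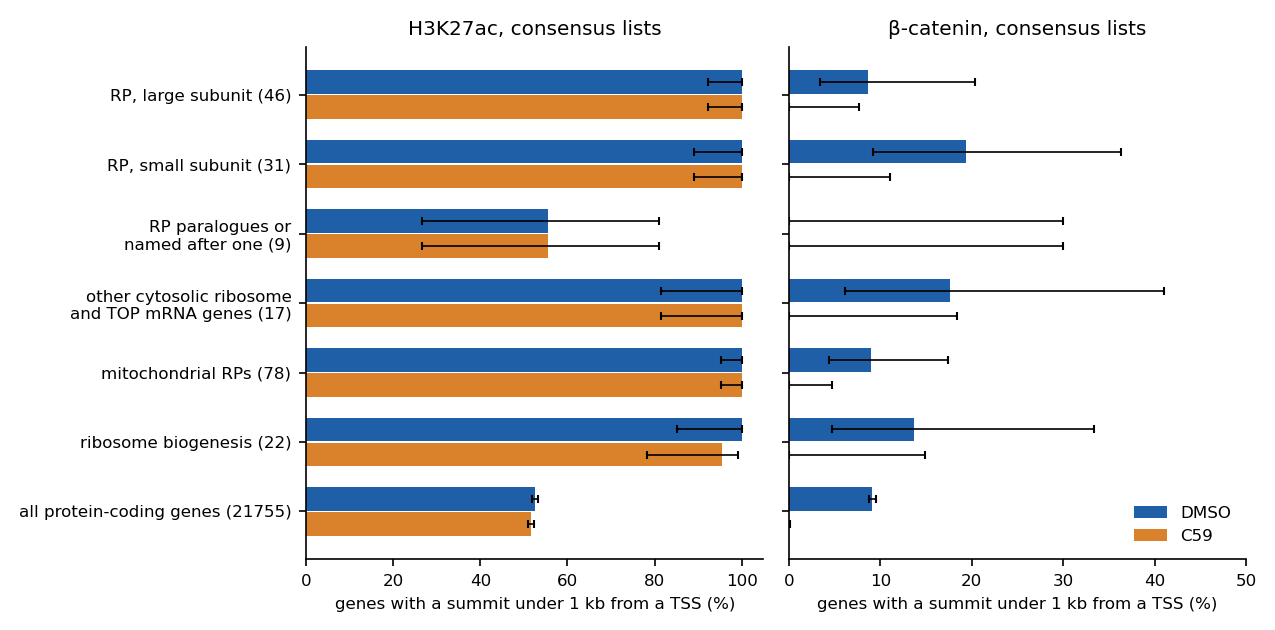
Share of genes with a consensus summit under 1 kb from a TSS, in percent, for H3K27ac (left) and β-catenin (right), in DMSO (blue) and C59 (orange). RP stands for ribosomal protein, the number of genes is given in brackets, and the lines are 95% Wilson intervals; H3K27ac covers 100% of the large and small subunit genes in both treatments, and no ribosomal protein gene has a listed β-catenin summit in C59.

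The fold enrichment of the highest H3K27ac summit at a TSS, which is a ratio over the coverage expected around the summit, was above the middle of all genes. Its median over the 82 genes was 13.04 and 13.35 in the DMSO replicates and 14.3 and 13.8 in the C59 replicates. The medians over all protein-coding genes with a summit in the same lists were 10.4, 10.7, 10.7 and 10.4. Of the 82 genes, 80.5% in each DMSO replicate and 75.6% and 76.8% in the C59 replicates lay above the median of all genes in the same list. The small subunit genes had a median of 14.4 and the large subunit genes one of 13.4 in the DMSO consensus list, with overlapping ranges of 5.38 to 20.9 and 7.85 to 22.4. The medians in the same list were 12.5 for mitochondrial ribosomal proteins, 11.3 for ribosome biogenesis and 10.7 for the other cytosolic ribosome and TOP mRNA genes.

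The gap to all genes was wider where the number of fragments was set against the background coverage of the whole library, a scale chosen after seeing the data. On that scale the 70 ribosomal protein genes that could be read had medians of 69.0 and 70.7 times the background in the DMSO replicates, against 30.5 and 31.2 over 10274 genes. In the C59 replicates the medians were 63.2 and 56.6 times the background, against 29.3 and 26.2. The other 12 genes were left out because the fragment count of their summit could not be solved within 0.01 in 1 or more libraries. Their mean fold enrichment over the 4 libraries ran from 14.5 for Rpl32 to 22.1 for Rpl17, and they include Rpsa and Rpl21 with 19.6 each. The 70 genes therefore lack several of the highest summits and do not stand for all 82.

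Rpl17 had the highest fold enrichment, with 21.4 and 22.4 in DMSO and 21.6 and 23.1 in C59. Rps27, which encodes a zinc finger protein of the small subunit, followed with 20.1 in both DMSO replicates and 22.2 and 20.8 in C59. Rps20 had 19.6 in both DMSO replicates and 19.47 and 19.97 in C59, and its libraries overlapped between treatments. For Rpsa, which also encodes the laminin receptor, the values were 19.70 and 19.97 in DMSO and 19.8 and 18.9 in C59. Rpl21 completed the 5 highest genes with 18.3 and 18.9 in DMSO and 21.1 and 19.9 in C59, all C59 values being above those of DMSO.

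Among the genes with the lowest fold enrichment, Rpl7 had 7.69 and 8.04 in DMSO and 7.58 and 7.82 in C59, and Rpl36a on the X chromosome had 8.76 and 7.83 in DMSO and 8.09 and 7.27 in C59. The libraries of both genes overlapped between treatments.
Rps19bp1, a regulator of SIRT1 named after its binding to RPS19, had 10.4 and 7.51 in DMSO and 7.09 and 7.42 in C59. For Rplp1, an acidic stalk protein of the large subunit, the values were 9.81 and 9.93 in DMSO and 7.89 and 5.28 in C59, without overlap.

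**Figure D2:**
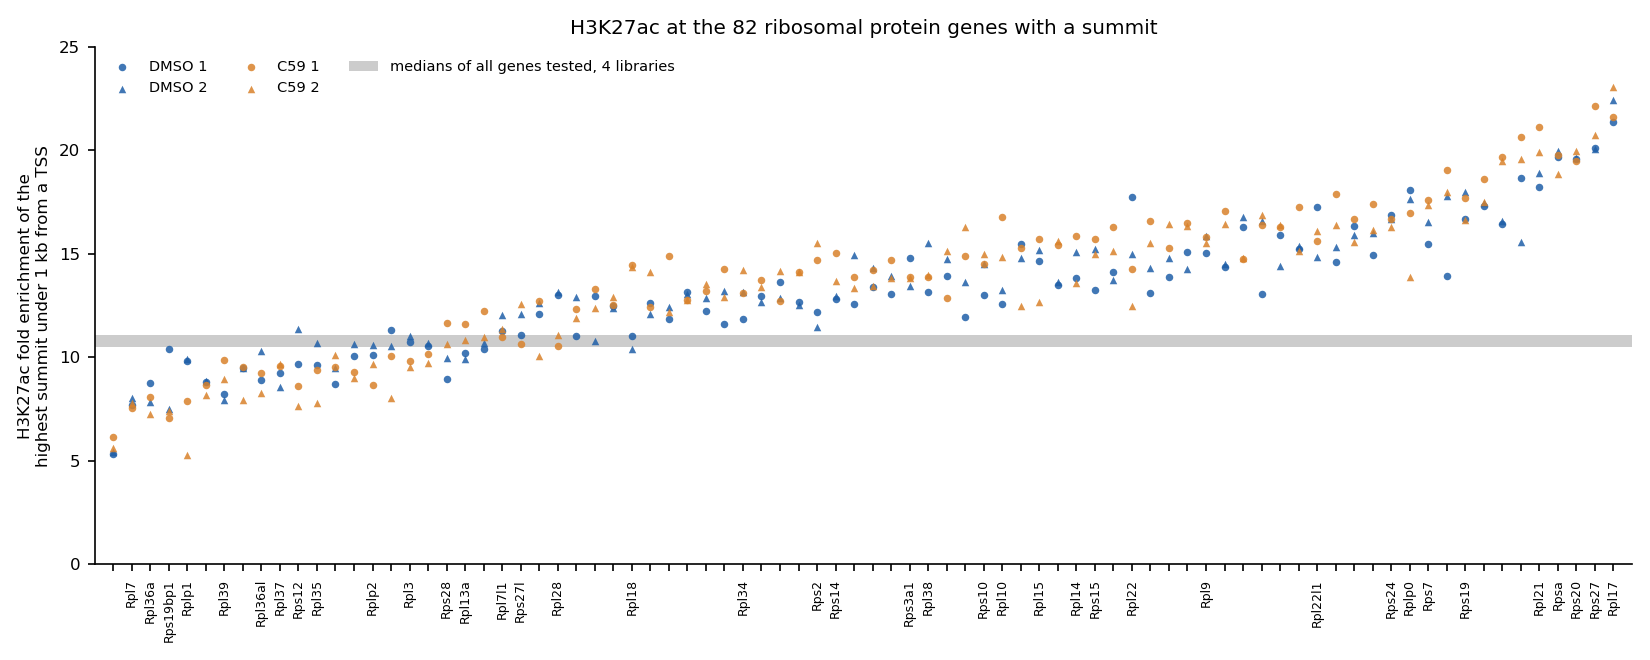
H3K27ac fold enrichment of the highest summit under 1 kb from a TSS for the 82 ribosomal protein genes that have one, ordered by their mean over 4 libraries; blue symbols are the DMSO and orange symbols the C59 replicates. The grey band spans the 4 library medians of all genes tested, and most genes lie above it, up to Rpl17 at 21.4 to 23.1 on the right; only genes named in the text are labelled.

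The summits sat on both sides of the start sites, as they did over all genes. Of 145 H3K27ac summits at the 82 genes in the DMSO consensus list, 80 lay downstream of the nearest TSS (55.2%, interval 47.0 to 63.0), against 60.9% of 22310 summits over all protein-coding genes. The median distance was 127 bp downstream and 248 bp upstream, with 155 and 258 bp over all genes. Within 100 bp of a TSS lay 30.3% of the summits, against 20.9% over all genes. The median number of annotated start sites was 6 for these genes and 3 for all protein-coding genes, and its part in the shares was not tested. Measured from the annotated 5′ end alone, 68.8% of 128 summits lay downstream, against 67.7% over all genes.

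Most promoters carried 2 summits or more. In the DMSO consensus list 32 genes had 1 summit, 39 had 2 and 11 had 3 or more, so that 61.0% had at least 2, against 63.5% of all genes with H3K27ac. The highest of a gene's summits lay downstream in 75.6% of the genes, against 72.0% over all genes. Of the 86 genes, 19 have a TSS of another protein-coding gene less than 1 kb away, and 33 of the 145 summits also lay within that distance of such a neighbour. For these summits the signal of the ribosomal protein gene and that of its neighbour cannot be told apart.

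**Figure D3:**
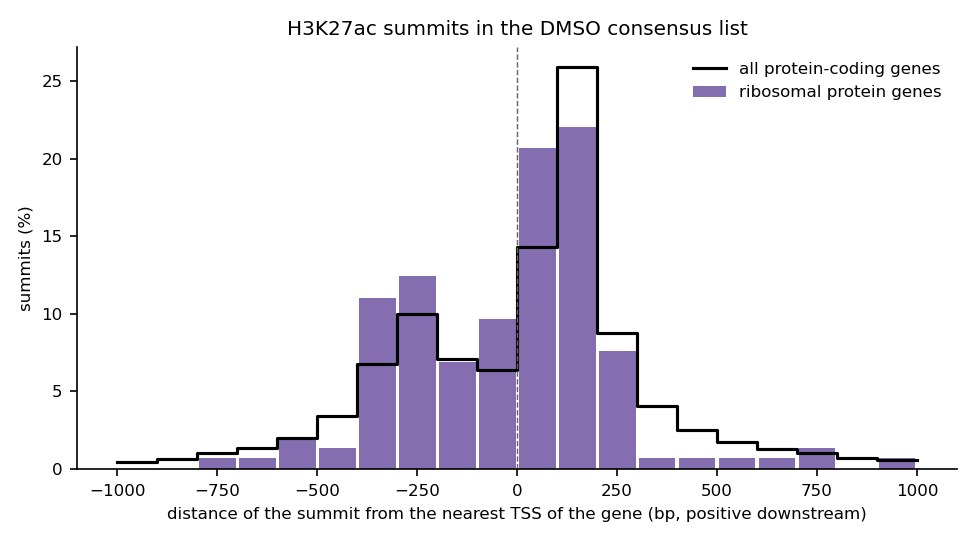
Distance of H3K27ac summits from the nearest TSS of the gene in the DMSO consensus list, in bins of 100 bp, positive in the direction of transcription, as the percentage of summits. Bars show 145 summits at ribosomal protein genes and the line 22310 summits at all protein-coding genes; both have a larger peak just downstream and a smaller one upstream of the TSS.

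β-catenin was listed at few of these promoters. In DMSO a consensus summit lay at a TSS of 10 of the 86 genes (11.6%, interval 6.44 to 20.1), against 9.12% of all protein-coding genes. Of the 82 genes with H3K27ac they were 12.2% (interval 6.76 to 21.01), against 16.4% of all genes with H3K27ac. The 10 genes comprised 4 of 46 of the large subunit and 6 of 31 of the small subunit, and the intervals of the 2 shares overlapped. The counts among the other lists were 3 of 17 other cytosolic ribosome and TOP mRNA genes, 7 of 78 mitochondrial ribosomal protein genes and 3 of 22 ribosome biogenesis genes.

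The signal at these 10 genes was also low. The median fold enrichment of their highest summit was 4.59, against 5.44 for all genes with such a summit. Rps19, which is mutated in Diamond-Blackfan anaemia, had the highest value at 7.23 (peak chr7:24884110-24884784), 42 bp upstream of its first TSS. Its summit held 15 and 23 fragments in the 2 DMSO replicates, where 2.01 and 2.60 were expected. Rpl37 followed with 6.16 (chr15:5116006-5116586) at 418 bp upstream of its TSS, and it held 18 and 13 fragments. The Rps24 summit, at 5.64 (chr14:24486997-24487394), lay 100 bp downstream of a processed-transcript TSS that is the gene's annotated 5′ end, 167 bp from a TSS of Polr3a, and held 11 and 18 fragments. It lay outside the H3K27ac peaks of the DMSO and C59 consensus lists. The RefSeq starts of Rps24 lie further downstream, at chr14:24490678 and chr14:24490753. For each of these 3 genes the exact 95% Poisson intervals of the replicates overlapped.

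Rpl17 had 4.80-fold enrichment at 273 bp downstream of a TSS, with 8 and 12 fragments, and Snord58b, a small nucleolar RNA gene, starts 308 bp from the summit. Rps3a1 had 4.75 (chr3:86142236-86142732) at 223 bp downstream of its TSS, with 14 and 13 fragments. Rps7 had 4.42 at 72 bp downstream of a TSS, with 11 and 10 fragments.
Rpl9 had 2 summits in 1 peak (chr5:65391456-65391973), of 4.28-fold at 433 bp and 4.07-fold at 165 bp upstream, and the second lay 44 bp from a TSS of Lias, a divergent gene that encodes lipoic acid synthetase. Rps10 had 4.16 at 104 bp upstream of an internal TSS, 126 bp from one of the RPS10-NUDT3 read-through gene. Rps20 had 4.03 at 9 bp upstream and Rpl13a 3.45 at 304 bp upstream of the TSS, the lowest of the 10. Of the 10 genes, 3 have a TSS of another protein-coding gene within 1 kb.

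The lists of the single replicates named more genes. In DMSO they held a β-catenin summit at a TSS of 16 genes in replicate 1 (18.6%) and 23 in replicate 2 (26.7%), against 14.5% and 20% of all protein-coding genes. Among the genes with H3K27ac in DMSO the order turned, with 19.5% and 28.0% of the ribosomal protein genes against 26.1% and 35.7% of all. Both lists named 11 genes, the 10 above and Rpl34, against 10.3% of all genes, and 17 genes (19.8%) were named by 1 list only, against 13.8% of all genes. Among the latter, Rps15 in replicate 2 had 24 fragments where 2.53 were expected, a larger value than that of any of the 10 consensus genes, and no row in replicate 1. Rps15 was named after its values were seen.

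**Figure D4:**
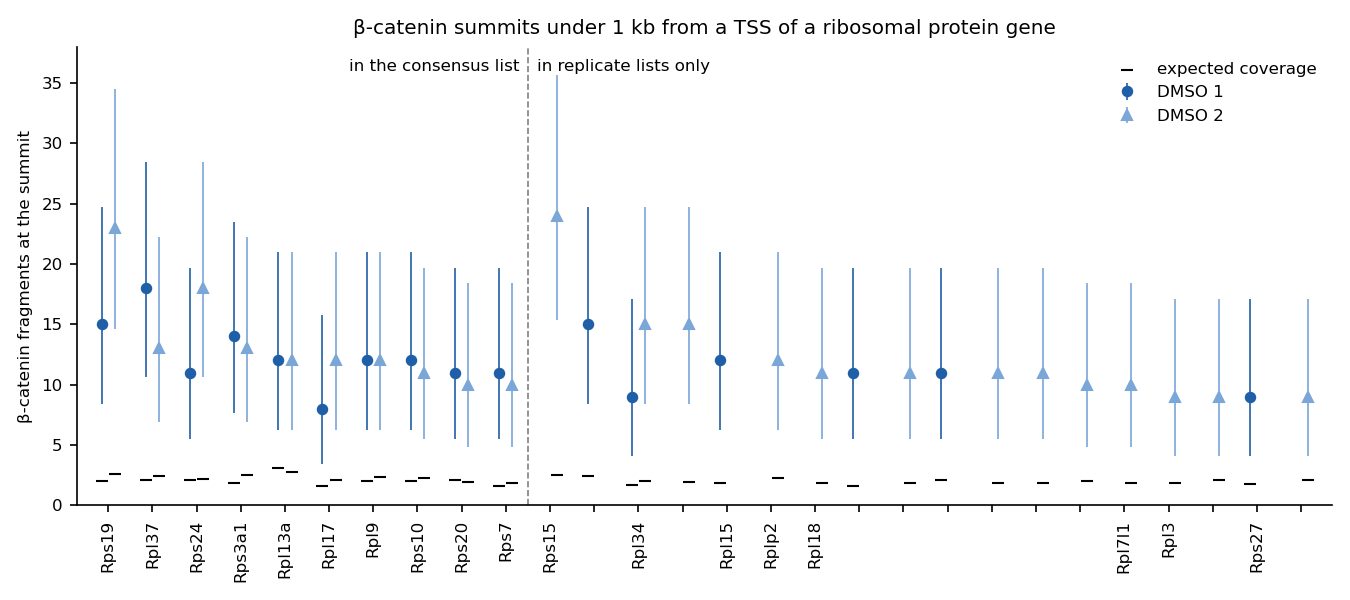
Fragments at the highest β-catenin summit under 1 kb from a TSS, in DMSO replicate 1 (circles) and replicate 2 (triangles), for the 28 ribosomal protein genes named by either list; lines are exact 95% Poisson intervals and black dashes the expected coverage. The 10 genes left of the dashed line are in the consensus list, a missing symbol means that the list has no row, the values run from 8 to 24 fragments, and only genes named in the text are labelled.

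Of the 11 consensus summits at the 10 genes, 8 lay inside an H3K27ac peak of the DMSO consensus list (72.7%, interval 43.4 to 90.3), against 72.0% of 2172 such summits over all protein-coding genes. A TCF/LEF word stood within the 200 bp around 1 of the 11 summits, against 19.2% over all genes. With 11 summits the interval of that share is 1.62 to 37.7%, and a difference from all genes was not detectable at this number.

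After C59 no ribosomal protein gene had a β-catenin summit at a TSS in the consensus list or in either replicate list, and in the consensus list 0.0781% of all protein-coding genes had one. A gene without a row is not shown to lack β-catenin, because the limit of the lists differed. The lowest −log10 p that was listed was 3.89 and 3.79 in the DMSO replicates and 5.69 and 5.72 in the C59 replicates. In the consensus lists the lowest listed values lay further apart, at 3.69 in DMSO and 8.92 in C59. The lowest −log10 q listed there was 1.34 and 4.52. Those lists hold only summits within a peak of each replicate, so 8.92 is the weakest row kept and not a limit of the caller. Of the genes with a summit in DMSO, 9 of 16 in replicate 1 and 14 of 23 in replicate 2 had a −log10 p of at least 5.72, the higher of the limits of the C59 replicates. The remaining 7 and 9 genes lay below that limit.

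The H3K27ac level at the promoters was compared between C59 and DMSO to ask whether the mark changed with WNT inhibition. limma, fitted to log2 fold enrichment over the 11100 genes with a summit at a TSS in all 4 libraries and centred on the median of each library, called 0 of the 82 ribosomal protein genes and 0% of all genes at an adjusted p under 0.05. At an unadjusted p under 0.05 there were 11 of the 82 genes and 1177 of the 11100. The median difference of C59 minus DMSO was 0.05 on the log2 scale over the 82 genes and 0.01 over all genes, and 52 of the 82 lay above 0 (63.4%), against 52.6% of all genes. On the scale of coverage over the library background, where 70 of the 82 genes could be read, their median was instead −0.10, against 0.03 over 10274 genes. The fold enrichment of the same 70 genes gave a median of 0.036, so that for these genes the direction of the median differed between the scales. The 12 genes left out have no value on the coverage scale, and their part in its median was not tested.

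Both C59 libraries lay outside the range of both DMSO libraries for 49 of the 82 genes, against 43.5% of all genes tested. Both were higher for 35 genes, against 24.1% of all genes, and both lower for 14, against 19.4%. With 2 libraries in each group such separation is frequent, and it is not a test. The median difference was 0.07 for the large subunit, 0.10 for the small subunit and −0.05 for the 5 paralogues or namesakes with H3K27ac. It was 0.07 for the other cytosolic ribosome and TOP mRNA genes, 0.00 for mitochondrial ribosomal proteins and −0.03 for ribosome biogenesis, and none of these lists had a gene past the threshold.

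The largest differences were small and did not pass the test. Rpl18 had 11.1 and 10.4-fold enrichment in DMSO and 14.5 and 14.4 in C59, a log2 difference of 0.43 ± 0.10 (SE, limma adjusted p = 0.33). Rps2 had 12.2 and 11.5 in DMSO and 14.7 and 15.5 in C59, with a difference of 0.36 ± 0.11 (limma adjusted p = 0.41). Rpl10, a protein of the large subunit that is joined late in its maturation, had 12.6 and 13.2 in DMSO and 16.8 and 14.9 in C59, with a difference of 0.30 ± 0.09 (limma adjusted p = 0.41). In all 3 genes the C59 values were above both DMSO values.

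At the other end, Rplp1 had the lowest difference at −0.60 ± 0.17 (limma adjusted p = 0.40), and its summit held 59 and 74 fragments in DMSO and 45 and 28 in C59. The difference was −0.35 without C59 replicate 2, −0.85 without C59 replicate 1 and −0.06 with the mean of its summits. Rps12 had 9.69 and 11.4 in DMSO and 8.63 and 7.64 in C59, a difference of −0.36 ± 0.11 (limma adjusted p = 0.41), which was −0.21 with the mean of its summits and −0.79 with coverage over the library background. Rpl22 had 17.78 and 14.99 in DMSO and 14.3 and 12.5 in C59, a difference of −0.28 ± 0.13 (limma adjusted p = 0.50). It was −0.14 without DMSO replicate 1 and −0.43 without DMSO replicate 2, −0.82 with the mean of its summits and −0.67 with coverage over the library background. In these 3 genes the C59 values were below both DMSO values.
For the 10 genes with a β-catenin consensus summit the difference ranged from −0.02 to 0.17 and the smallest adjusted p was 0.56 by limma. Their median fold enrichment over the 4 libraries was 16.1, against 13.4 for the other 72 genes. On data simulated for these 11100 genes, with 200 of them changed, the same fit recovered 0% of 1.5-fold, 63% of 2-fold and 84% of 3-fold changes. In that simulation, changes of about the size of the largest differences seen here were not called.

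**Figure D5:**
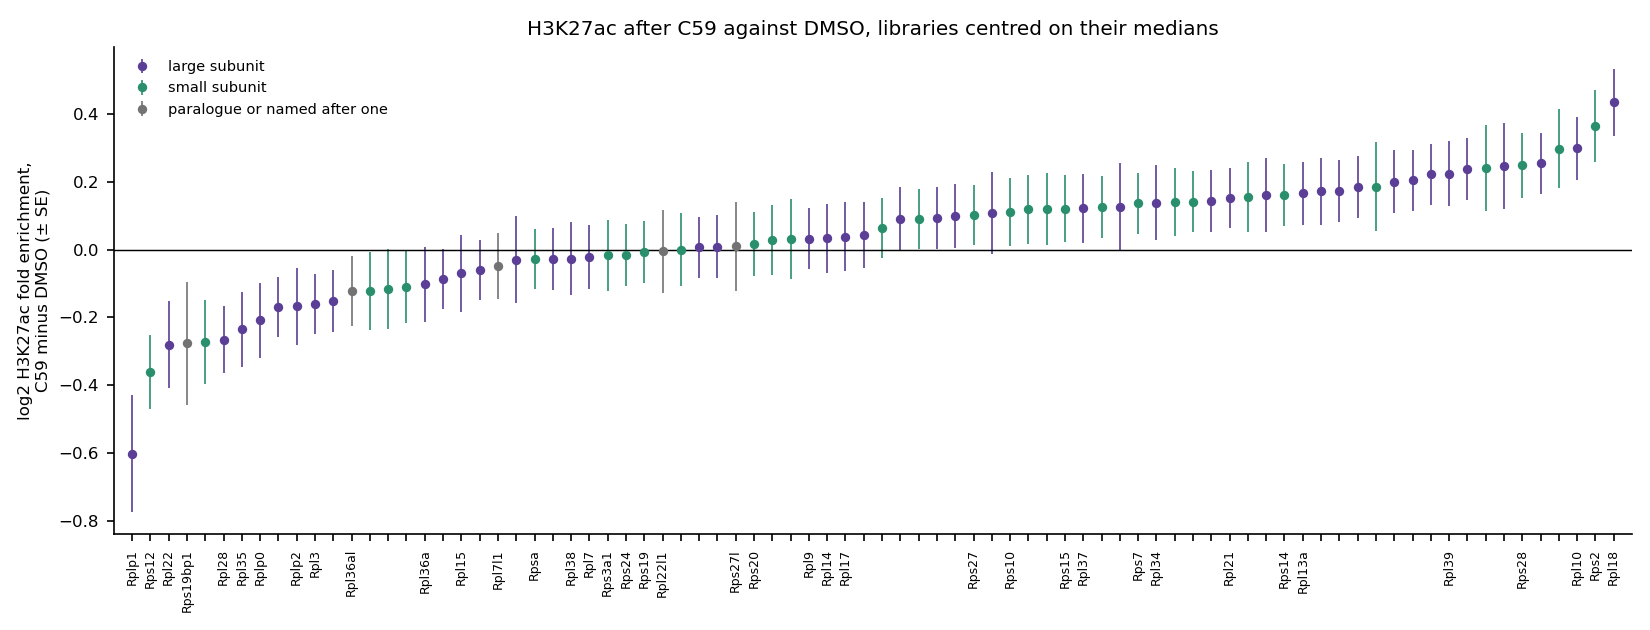
Log2 H3K27ac fold enrichment at the highest summit, C59 minus DMSO with each library centred on its median, for the 82 ribosomal protein genes ordered by the difference; the lines are standard errors from limma with 2 libraries in each group. Values run from −0.60 for Rplp1 to 0.43 for Rpl18, 52 lie above 0, none passes the threshold of 0.05 on the adjusted p, and only genes named in the text are labelled.

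β-catenin summits away from the promoters were listed for a minority of these genes. At least 1 kb from every TSS of the gene and within 50 kb of it or inside it, a β-catenin DMSO consensus summit was found for 33 of the 86 genes (38.4%), against 39.9% of all protein-coding genes. Of these genes 24 had 1 such summit and 9 had 2 or more, in all 45 distinct summits. At a TSS of another gene lay 28 of the 45 summits, and only 6 of the 45 had a ribosomal protein gene as the nearest protein-coding gene. Counting only summits at least 1 kb from every annotated TSS left 16 genes (18.6%), against 28.6% of all protein-coding genes. Of the 45 summits, 22 lay inside an H3K27ac peak in DMSO and 11 had a TCF/LEF word within the 200 bp around them. The shares over the flanking summits of all genes are not given here, so whether these counts differ from the usual share was not tested.

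The strongest flanking summits exceeded any at a TSS. At 28708 bp upstream of Rpl38, whose loss of dosage alters the axial skeleton in mice, the summit had 16.9-fold enrichment (peak chr11:114639488-114640082), with 16.3 and 14.9 in the replicates, and 3 TCF/LEF words around it. It has no other protein-coding gene closer, and it lay outside the H3K27ac peaks. The summit 45368 bp upstream of Rps3a1 had 16.8 (chr3:86187582-86188357), with 14.7 and 16.6 in the replicates, and Lrba is the nearest gene. The summit 29726 bp downstream of Rpl14 had 16.2 (chr9:120602939-120603759), with 12.6 and 15.7 in the replicates, and lay inside an H3K27ac peak.
Within the annotated Rps14 gene, 9857 bp from the nearest TSS, a summit had 15.8 with 12.03 and 15.33 in the replicates. Near Rpl28, at 40083 bp upstream, a summit of 11.8 with 8.92 and 11.1 in the replicates lay 181 bp from a TSS of Cox6b2. None of the 45 summits lay inside a β-catenin peak of the C59 consensus list.

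H3K27ac summits flanked nearly all of these genes. In the DMSO consensus list 79 of 86 genes had one within the same limits and in the C59 list 78, with a median of 3.5 and 4 summits per gene. Of all protein-coding genes 66.2% and 65.4% had one. Counting only summits at least 1 kb from every TSS left 30 and 29 genes, or 34.9% and 33.7%, against 31.6% and 30.5% of all protein-coding genes.

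The promoter sequences were read from RefSeq on GRCm38.p6, which matched 66 of the 86 genes with 78 promoters from 250 bases before to 50 after the start. The start regions of 10 promoters are shown to compare the TOP-like tracts, with 15 bases before the RefSeq start and 15 from it. Capitals mark a C followed by at least 4 pyrimidines within 5 bases of the start, on the strand of the gene.
Rpl13a, chr7:45128731-45128760, minus strand: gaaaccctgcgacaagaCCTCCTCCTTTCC
Rps10, chr17:27635230-27635259, minus strand: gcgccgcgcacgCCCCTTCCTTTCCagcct
Rps24, chr14:24490663-24490692, plus strand: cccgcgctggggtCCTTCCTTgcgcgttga
Rpl15, chr14:18270972-18271001, minus strand: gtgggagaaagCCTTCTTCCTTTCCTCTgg
Rpl35, chr2:39005117-39005146, minus strand: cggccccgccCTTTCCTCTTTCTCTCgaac
Rps27, chr3:90213634-90213663, minus strand: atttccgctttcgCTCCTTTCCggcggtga
Rps27rt, chr9:114982725-114982754, minus strand: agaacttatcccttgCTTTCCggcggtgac
Rps19, chr7:24884577-24884606, plus strand: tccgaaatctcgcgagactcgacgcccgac
Rpl39, chrX:37085208-37085237, minus strand: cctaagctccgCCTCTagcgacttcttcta
Rpl39l, chr16:10170213-10170242, plus strand: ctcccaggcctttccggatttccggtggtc
Rpl13a, Rps10 and Rps24 are genes with a β-catenin consensus summit, Rpl15 and Rpl35 have long tracts, and the start of Rps19 shown here has none. The Rps24 summit lies near the start of a processed transcript and not near the start shown here. Rps27 and its retrocopy Rps27rt, which had no H3K27ac summit, share the letters that follow the tract, and the pyrimidine run just before the Rpl39l start is unmarked because no C followed by 4 pyrimidines lies within 5 bases of the start.

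A TOP-like tract was found in 32 of the 78 promoters (41.0%, interval 30.8 to 52.1), against 18.8% of 20061 promoters of all protein-coding genes. RefSeq starts can differ from the position at which transcription begins, and a tract more than 5 bases away is missed. The ETS word CGGAAG, searched on both strands as all words below, was present in 60.3% of the promoters, against 21.8% of all. The SP word GGGCGG was also present in 60.3%, against 48.0% of all, and the CCAAT box (CCAAT) in 29.5%, against 37.9%. The TATA box (TATAAA) was present in 7 promoters or 8.97%, against 12.1% of all. The 7 were those of Rpl22, Rpl22l1, Rpl36a, Rpl39, Rplp0, Rps2 and Rps28. The Rpl22 match belongs to a RefSeq start 1306 bp from the nearest GENCODE TSS, and the Rpl22 promoter whose start lies 16 bp from one has no TATA box. In the shorter window from 100 bases before the start to 50 after, the order turned for the TATA box, with 7.69% against 6.46% of all. The ETS word was present there in 47.4% against 15.7%, the SP word in 44.9% against 39.9% and the CCAAT box in 20.5% against 24.1%.

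The YY1 word AAGATGGC was present in 10.3%, against 3.11% of all promoters, and the E-box CACGTG in 10.3%, against 8.06%. In the shorter window the order turned for the E-box, with 2.56% against 4.95% of all, while the YY1 word was present in 8.97% against 2.19%. The NRF1 word GCATGCGC was present in 3.85%, against 3.65%. A TCF/LEF word was present in 1 promoter, that of Rps3a1 (1.28%, interval 0.227 to 6.91), against 7.47% of all promoters. A match describes letters in this window and not a bound site, and a promoter without a match can hold a weaker or more distant site. Several genes have more than 1 promoter row with overlapping sequence, and the shares are over rows.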

How the data were processed

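The series holds ChIP-seq of β-catenin and H3K27ac in forelimb buds, and the deposited peak lists were used: 8 replicate and 4 consensus lists. According to the labels and the methods, the authors used cutadapt 4.1 (the methods state another version), Bowtie2 2.4.5, SAMtools, Picard 2.27.4, bedtools and MACS2 2.2.7.1 (genome size 1870000000, no input), after alignments of a mapping quality below 30 were discarded. Consensus lists were called by the authors on pooled replicates, without duplicates and sampled to equal size, and hold only summits that fall within a peak of each replicate. Each deposited row gives a fold enrichment, a ratio over the expected coverage, together with a −log10 p and a −log10 q, and these values were made by the authors. Removal of blacklisted regions was not repeated here.

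TSSs of GENCODE M21 on GRCm38 were used. Fragment counts and depth were solved from each row's fold enrichment and −log10 p, and 100% of the rows tried were matched within 0.01 up to a −log10 p of 250. Whether duplicates were removed before the replicate lists were called is not given in the sources used here. Intervals (Wilson for shares, exact Poisson for fragments, 95%) cover counting error only. Depth limits which peaks pass the caller's limit, and a region without a row is not shown to be unbound. H3K27ac levels were tested with limma 3.58.1 in R 4.3.3 on log2 fold enrichment without a pseudocount, with Benjamini-Hochberg adjustment over all genes tested and a threshold of 0.05, and both this step and the fragment solver were tested on simulated data. Counts of genes were described beside all protein-coding genes, without a test. Python 3.11.15 was used for the joins.

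The genes named are those with a β-catenin consensus summit at a TSS, those without H3K27ac in any of the lists, the 5 highest and 5 lowest in mean H3K27ac fold enrichment, the 3 highest and 3 lowest differences, and the 5 strongest flanking summits. The genes and lists were chosen with earlier results of these data known. Alternatives covered the TSS limit and set, single replicates, stricter limits, the choice of summit, centring, the flank, the motif window, a replicate block and single libraries left out, and coverage over the library background was added after seeing the data. RefSeq's promoter table did not match 20 of the genes. Some genes that these rules select are not reported here.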

Additional observations from a re-analysis of the deposited data

How the results depend on the processing

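The count of 82 genes with H3K27ac held under limits of 500 bp and 2 kb, coding transcripts only, each replicate list and stricter limits, and fell to 76 with the annotated 5′ end only. For a β-catenin summit in DMSO, the count of 10 genes was 9 with coding transcripts only and 8 with the annotated 5′ end only. The 10 genes with a β-catenin summit in DMSO became 16 and 23 in the lists of replicates 1 and 2 and 3 at a fold enrichment of at least 5, and the 33 genes with a flanking summit became 15 within 20 kb, 52 within 100 kb, 55 in the list of replicate 2 and 16 away from every TSS; the shares downstream moved from 55.2% to 68.8% with the annotated 5′ end only.

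By limma, 0 ribosomal protein genes and 0 genes in all were called; with the summit nearest to a TSS these were 1 and 33, at a mean fold enrichment of at least 5 there was 1 gene in all, and with coverage over the library background, chosen after seeing the data, 7. The 1 ribosomal protein gene was Rpl12 (−2.13 on the log2 scale, limma adjusted p = 0.044), whose nearest summit was 10.1 and 10.7-fold in DMSO and 2.25 and 2.42-fold in C59, where a further small summit was listed closer to the TSS; its highest summit was 10.1, 10.7, 9.31 and 9.01-fold. The median log2 difference of 0.054 ranged from 0.041 to 0.097 when each library was left out, being 0.097 without C59 replicate 1, was −0.10 with coverage over the library background and 0.036 in fold enrichment over the same genes, also chosen after seeing the data, where 1 gene in all was called. Rpl10 turned from 0.30 to −0.10 with the nearest summit.

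A replicate block left the count at 0 of 82 and 0 of 11100 genes. Same-numbered deviations from the group means correlated at 0.02 over genes. Whether same-numbered samples were prepared together cannot be told from this value and is not given in the sources used here. With each library left out, 0 genes were called as well. With 2 libraries in each group, no change of 1.5-fold was called in the simulated data.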
